A study of Homo sapiens with 10 samples.

Results

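The genes described here are the core and the regulators of the spliceosome, taken by their symbols: SNRP proteins, SF3A and SF3B subunits, PRPF proteins, SR proteins (SRSF) and heterogeneous nuclear ribonucleoproteins (HNRNP). The symbols picked 69 of the 23245 genes in each expression table, namely 22 HNRNP, 13 PRPF, 13 SNRP, 12 SRSF and 9 SF3A or SF3B genes. Among them, 4 rows are pseudogenes (HNRNPA1P10, HNRNPA3P1, HNRNPKP3 and SNRPD2P2). The rule used symbols only.

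The spliceosome removes introns from pre-mRNA and is built from small nuclear ribonucleoproteins (snRNPs), each an RNA held in a ring of Sm proteins. U1 reads the start of the intron, U2 with its SF3A and SF3B subcomplexes grips the branch site, and the U4/U6.U5 tri-snRNP with many PRPF proteins brings in the catalytic centre. SR proteins mostly promote the use of nearby exons, while hnRNPs coat nascent transcripts and often repress splice sites. These genes are widely expressed, and dividing cells make large amounts of them.

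PcTF is a synthetic activator in which the histone-binding domain of the polycomb protein CBX8 is joined to a red fluorescent protein and a transcriptional activation domain, and dTF is the same fusion without the histone-binding domain. RNA was sequenced from K562 (leukaemia), SK-N-SH (neuroblastoma) and U-2 OS (osteosarcoma) cells given 2 µg of PcTF plasmid with Lipofectamine LTX, against cells given the transfection reagents only (mock). K562 cells were collected at 48 h, the adherent SK-N-SH and U-2 OS cells at 96 h. The inducible lines U2OS-PcTF and U2OS-dTF carried an integrated transgene under a doxycycline-controlled repressor and both received 1 µg/mL doxycycline for 96 h. Expression is in FPKM, a fragment count divided by gene length and sequencing depth, which allows levels of different genes to be set side by side. Each column is 1 library, except that the PcTF column of the inducible lines is the authors' mean of 3 libraries, namely the PcTF-transfected U-2 OS library and 2 U2OS-PcTF libraries. Where a gene is said to have averaged a value against U2OS-dTF, that value is this mean of 3. As each group is given as 1 library or as a mean of libraries, no p-value or replicate error could be given. Intervals in the text are 95% exact binomial intervals on estimated reads, and they cover counting error only. Transfected cultures also held cells without plasmid, and in bulk RNA fewer cells that express a gene and less RNA per cell cannot be told apart.

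Depth estimated from the smallest FPKM steps was 4263115 to 7374293 reads per library. CBX8, whose histone-binding domain the transgene carries, was 6.43 FPKM with PcTF against 0.61 FPKM in mock U-2 OS cells, 8.85 FPKM with PcTF against 0.287 FPKM in mock SK-N-SH cells, and 14.3 FPKM with PcTF against 1.59 FPKM in mock K562 cells. Neuroblastoma markers were all 6 at 1 FPKM or more in both SK-N-SH libraries and erythroid markers all 6 in both K562 libraries. Of 6 mesenchymal markers, 4 reached 1 FPKM in U-2 OS, where TWIST1 and COL1A2 were listed at 0, but 5 did so in SK-N-SH, so that list did not set U-2 OS apart. The U2OS-dTF library stood apart from mock U-2 OS cells across all genes, 28.1% of which were 2-fold higher and 32.0% 2-fold lower. The mesenchymal marker COL3A1, a fibrillar collagen, was 0.196 FPKM in U2OS-dTF, 3.17 FPKM in the mean of the 2 U2OS-PcTF libraries and 28.6 FPKM in PcTF-transfected cells, against 451 FPKM in mock U-2 OS cells. Every result that uses U2OS-dTF rests on that library.

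The splicing genes were highly expressed. Their median rank among all genes, by mean FPKM over the 3 mock libraries, was the 90.6th percentile, and 59 of the 69 were at 1 FPKM or more in all 7 single libraries, as were 32.0% of all genes. In mock cells the hnRNP genes without pseudogenes had a median of 77.1 FPKM in K562, 48.0 FPKM in SK-N-SH and 40.7 FPKM in U-2 OS. The 8 Sm ring genes, counting SNRPN, had a median of 47.6 FPKM in K562, 11.7 FPKM in SK-N-SH and 8.07 FPKM in U-2 OS. Of 65 genes with 1 FPKM or more in at least 1 mock library, 43 differed 2-fold or more between the highest and the lowest line, against 82.9% of all genes by the same rule. K562 was the highest of the 3 lines for 31 of these 43 genes, SK-N-SH for 9 and U-2 OS for 3. Across all genes, 11455 had such a gap, and K562 was highest for 4574, SK-N-SH for 3489 and U-2 OS for 3392. The 3 tables were normalized separately, so these gaps between lines are descriptive.

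**Figure D1:**
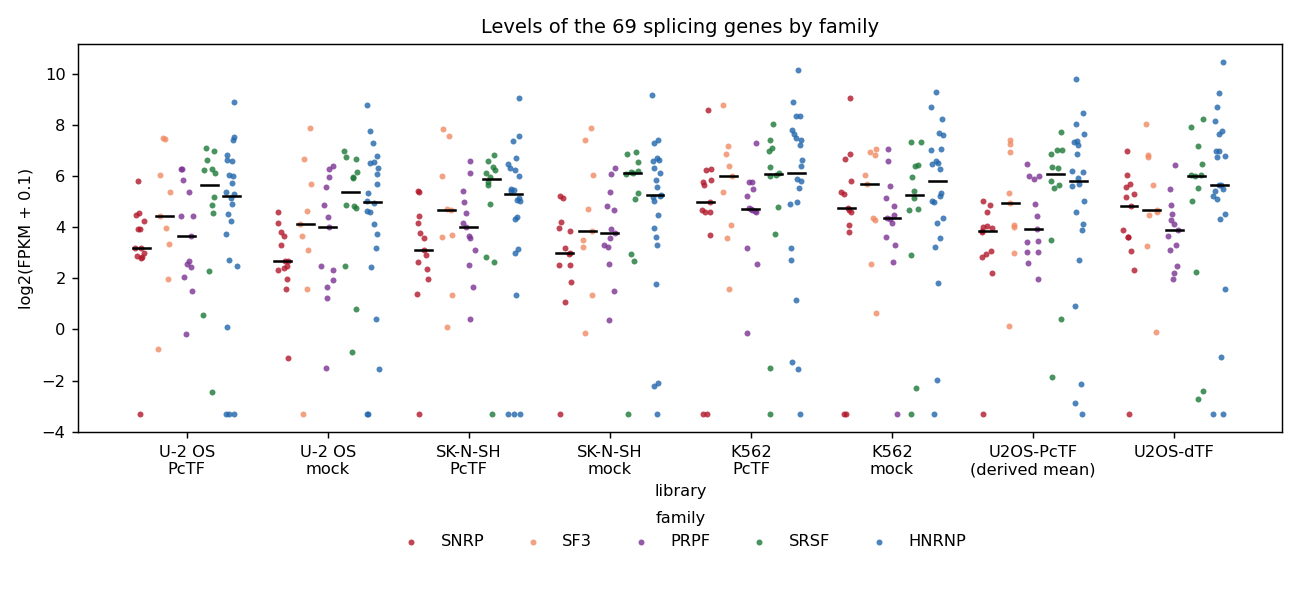
Level of each of the 69 splicing genes, as log2(FPKM + 0.1), in the 7 single libraries and in the derived mean of the 2 U2OS-PcTF libraries. Points are genes coloured by family and black bars are family medians. The median of the SNRP genes is higher in K562 than in the transfected and mock libraries of the other lines. Single genes can differ, as SNRPN is listed at 0 in K562 and SNRPB2 is higher in SK-N-SH. Points at the bottom are genes listed at 0.

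A gene was counted as higher or lower when the 2 values differed 2-fold or more after 0.1 FPKM was added to each, with at least 1 FPKM in either. In U-2 OS cells 5 of 62 splicing genes were higher with PcTF and 0 were lower, against 12% higher and 5.59% lower among all genes. The 5 were SNRPG, SF3B5, SNRPE, SNRPD2 and PRPF19. The median log2 change was 0.12 over the splicing genes and 0.08 over all genes. In SK-N-SH cells 0 of 63 were higher and 1, SNRPG, was lower, against 5.79% and 2.69% of all genes. The median there was 0.01 for the splicing genes and 0.10 for all genes. In K562 cells 11 of 62 were higher and 2 were lower, against 28.6% and 11.7% of all genes, with medians of 0.36 for the splicing genes and 0.37 for all genes. With this filter the share of splicing genes that moved 2-fold in either direction was below the share of all genes in each of the 3 lines. The splicing genes are highly expressed, and with at least 5 FPKM in either library the U-2 OS count was 5 of 57 higher, close to the 8.75% of all genes. Shares under that stricter filter are not given here for the other lines or for lower genes.

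In the inducible lines the mean of 3 PcTF libraries was 2-fold higher than U2OS-dTF for 5 of 63 splicing genes and 2-fold lower for 14. Among all genes 36.1% were higher and 14.5% were lower. The medians had opposite signs, -0.43 for the splicing genes and 0.52 for all genes. The median over genes with 1 FPKM or more in both columns was 0.31, and with it subtracted 3 splicing genes were 2-fold higher and 26 were 2-fold lower. The share of all genes after this subtraction is not given, so these counts have no background. U2OS-dTF itself, set against mock U-2 OS cells, was 2-fold higher for 35 of 63 splicing genes and lower for 5, while 28.1% of all genes were higher and 32.0% were lower. The medians were 1.18 for the splicing genes and -0.14 for all genes. Both of these comparisons contain the same U2OS-dTF library. The 2 U2OS-PcTF libraries alone, whose mean was derived by removing the transfected library from the mean of 3, were 2-fold higher than U2OS-dTF for 8 of 64 splicing genes and lower for 11, against 37.0% and 13.5% of all genes. The same derived mean was 2-fold higher than mock U-2 OS cells for 22 of 64 and lower for 0, against 27.3% and 7.69% of all genes, although 1 of the 22, SF3A2, was listed at 0 in mock U-2 OS cells.

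**Figure D2:**
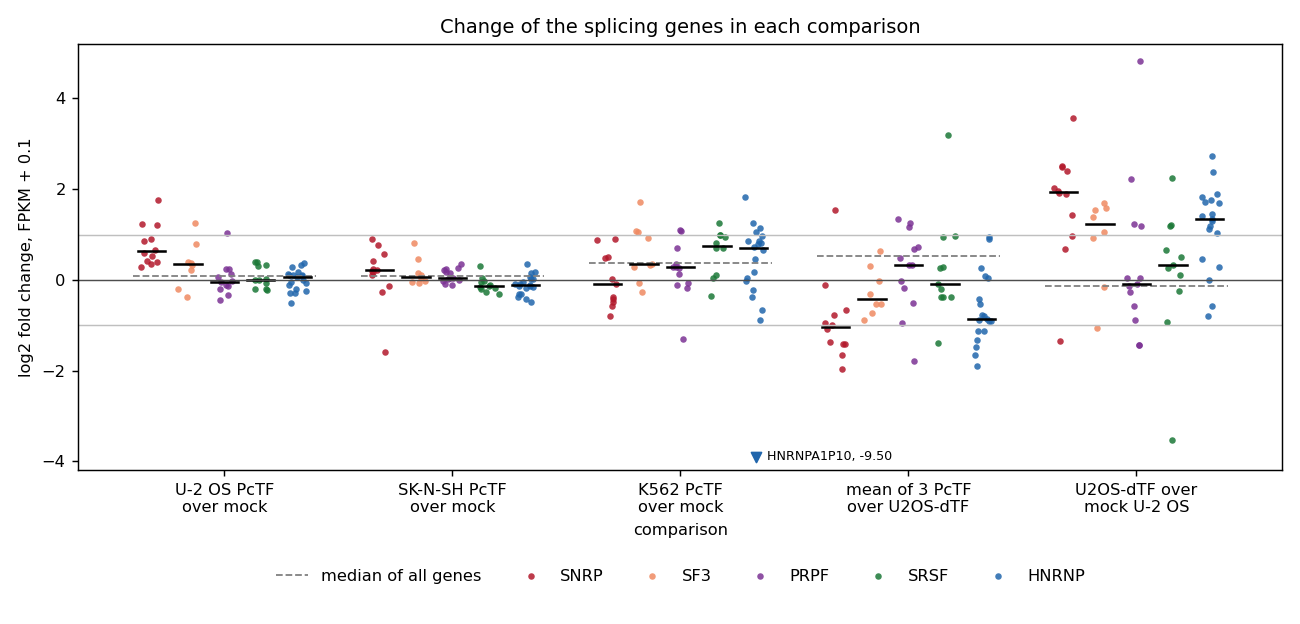
Log2 fold change (0.1 FPKM added) of each splicing gene with at least 1 FPKM in either column, by family, in 5 comparisons. Black bars are family medians, dashed lines the medians of all genes and grey lines a 2-fold difference. The SNRP genes lie above 0 in U-2 OS and mostly below 0 against U2OS-dTF, and HNRNPA1P10 in K562 is off the scale at -9.50.

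The genes of the Sm ring lay above mock together in U-2 OS cells. Sm proteins B, D1, D2, D3, E, F and G form the ring that binds each spliceosomal RNA, so 1 copy of each is needed per snRNP. Without SNRPN, all 7 genes were above 0 in U-2 OS cells given PcTF, with a median log2 change of 0.86. The range was 0.54 to 1.76, and 3 of the 7 passed 2-fold, against 12% of all genes. The counting interval in U-2 OS included 0 for SNRPD3 (-0.35 to 1.67) and SNRPF (-0.98 to 2.05). In SK-N-SH 5 of the 7 were above 0 with a median of 0.20, and in K562 2 of the 7 were above 0 with a median of -0.41. All 7 were below 0 for the mean of 3 PcTF libraries over U2OS-dTF, with a median of -1.37. By 2-fold or more 5 of them were lower, against 14.5% of all genes. Against mock U-2 OS cells all 7 were 2-fold higher in U2OS-dTF, with a median of 2.40, where 28.1% of all genes were higher. In the derived U2OS-PcTF mean 5 were 2-fold higher, with a median of 1.25, where 27.3% of all genes were higher. The higher levels were therefore measured in cells with PcTF and in cells with dTF, and all 7 were lower in the mock U-2 OS library than in the PcTF-transfected library, the derived U2OS-PcTF mean and U2OS-dTF. Of the 6 mesenchymal markers 3 were lower with PcTF in U-2 OS and TWIST1 and COL1A2 were listed at 0 in both libraries. Their sum was 219 FPKM with PcTF against 758 FPKM in mock U-2 OS cells, most of the gap being COL3A1, and RUNX2 was 7.86 FPKM with PcTF against 7.30 FPKM in mock cells. The part of these markers in the result was not tested.

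**Figure D3:**
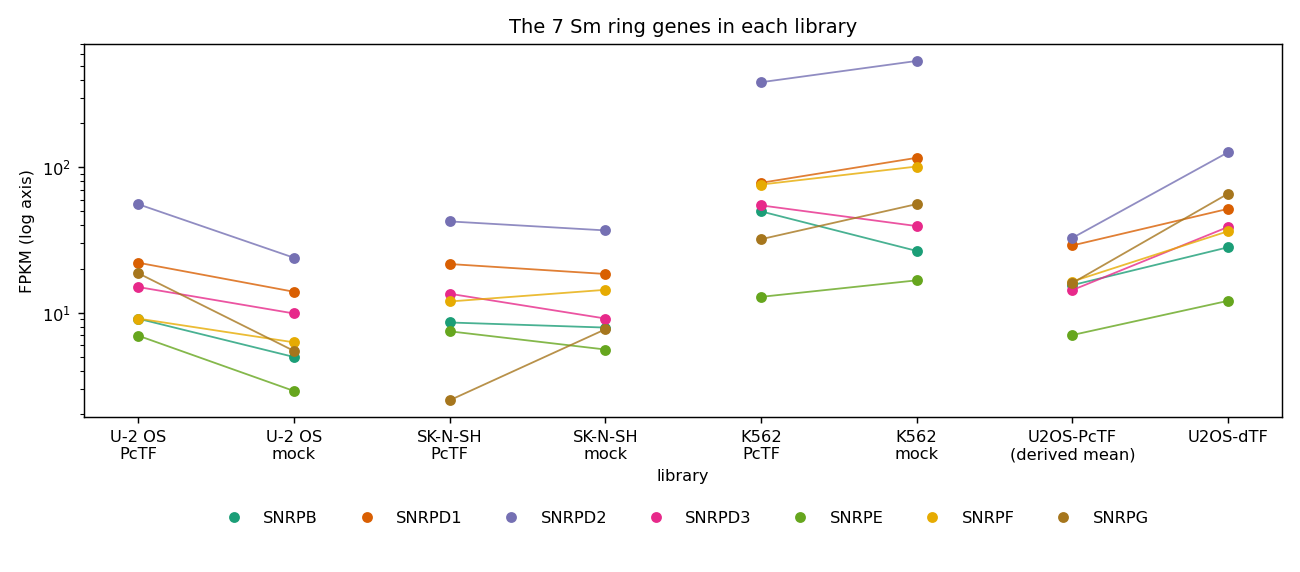
FPKM of the 7 Sm ring genes on a log axis, in PcTF-transfected and mock libraries of the 3 lines, in the derived mean of the 2 U2OS-PcTF libraries and in U2OS-dTF. Lines join the 2 columns of a pair. All 7 lie higher with PcTF than in mock U-2 OS cells, all 7 lie lower in U2OS-PcTF than in U2OS-dTF, and SNRPG is the only one 2-fold lower in SK-N-SH.

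SNRPG, which encodes SmG (chr2:70508506-70520869 in hg19), had 18.7 FPKM with PcTF against 5.46 FPKM in mock U-2 OS cells, 2.50 FPKM with PcTF against 7.69 FPKM in mock SK-N-SH cells, and 32.0 FPKM with PcTF against 55.8 FPKM in mock K562 cells. Its log2 change was 1.76 in U-2 OS (0.75 to 3.01, 31 estimated reads against 10). It was -1.58 in SK-N-SH (-3.31 to -0.21, 6 estimated reads against 15) and -0.80 in K562 (-1.22 to -0.38). SNRPG was the only splicing gene 2-fold higher in 1 line and 2-fold lower in another, while 3.27% of all genes were so. It averaged 16.9 FPKM, against 65.8 FPKM in U2OS-dTF, a log2 change of -1.95, which was the lowest of the 63 splicing genes that reached 1 FPKM in that comparison. These SNRPG values rest on few reads in mock U-2 OS and in PcTF-transfected SK-N-SH cells.

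SNRPE, encoding SmE (chr1:203830740-203840280), had 6.95 FPKM with PcTF against 2.90 FPKM in mock U-2 OS cells, 7.45 FPKM with PcTF against 5.59 FPKM in mock SK-N-SH cells, and 12.9 FPKM with PcTF against 16.7 FPKM in mock K562 cells. In U-2 OS this was a log2 change of 1.23 (0.44 to 2.13). SNRPE was the lowest of the 7 in every library but PcTF-transfected SK-N-SH, where SNRPG was lower, and it averaged 7.00 FPKM, against 12.1 FPKM in U2OS-dTF. SNRPD2, encoding SmD2 (chr19:46190712-46195443), was the highest of the 7 throughout, with 55.7 FPKM with PcTF against 23.9 FPKM in mock U-2 OS cells, 42.4 FPKM with PcTF against 36.8 FPKM in mock SK-N-SH cells, and 384 FPKM with PcTF against 538 FPKM in mock K562 cells. Its change in U-2 OS was 1.22 (0.65 to 1.86), and it averaged 40.3 FPKM, against 127 FPKM in U2OS-dTF (-1.65). The ratio of the highest to the lowest Sm gene was 8.01 with PcTF and 8.24 in mock U-2 OS cells, 29.9 with PcTF and 32.2 in mock K562 cells, and 10.5 in U2OS-dTF.

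The other ring genes stayed under 2-fold in all 3 transfected lines. SNRPB, which makes SmB and SmB' (chr20:2442281-2451499, a locus shared with SNORD119), had 9.09 FPKM with PcTF against 4.96 FPKM in mock U-2 OS cells, 8.57 FPKM with PcTF against 7.90 FPKM in mock SK-N-SH cells, and 49.7 FPKM with PcTF against 26.6 FPKM in mock K562 cells. SNRPD1, for SmD1 (chr18:19192260-19210208), had 22.1 FPKM with PcTF against 13.9 FPKM in mock U-2 OS cells, 21.6 FPKM with PcTF against 18.5 FPKM in mock SK-N-SH cells, and 78.1 FPKM with PcTF against 116 FPKM in mock K562 cells. SNRPD3, for SmD3 (chr22:24951618-24968509), had 15.0 FPKM with PcTF against 9.88 FPKM in mock U-2 OS cells, 13.5 FPKM with PcTF against 9.12 FPKM in mock SK-N-SH cells, and 54.7 FPKM with PcTF against 39.4 FPKM in mock K562 cells. SNRPB and SNRPD3 were thus listed above mock in all 3 lines, while SNRPD1 was listed below mock in K562 and above it in the other lines. SNRPF, for SmF (chr12:96252709-96260238), had 9.11 FPKM with PcTF against 6.25 FPKM in mock U-2 OS cells, 11.9 FPKM with PcTF against 14.4 FPKM in mock SK-N-SH cells, and 76.0 FPKM with PcTF against 101 FPKM in mock K562 cells, and so lay above mock in U-2 OS alone. In the inducible lines SNRPB averaged 13.3 FPKM, against 28.2 FPKM in U2OS-dTF, SNRPD1 averaged 26.7 FPKM, against 51.8 FPKM in U2OS-dTF, SNRPD3 averaged 14.5 FPKM, against 38.8 FPKM in U2OS-dTF and SNRPF averaged 14.0 FPKM, against 36.3 FPKM in U2OS-dTF. All 4 were lower in the mean of 3 PcTF libraries, by log2 changes of -1.07, -0.95, -1.41 and -1.37.

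SNRPN encodes SmN, a close relative of SmB that replaces it mainly in brain and is expressed from the paternal copy of an imprinted locus (chr15:25068794-25223729, shared with SNURF). It was listed at 0 in both K562 libraries. It had 15.2 FPKM with PcTF against 12.4 FPKM in mock U-2 OS cells and 17.7 FPKM with PcTF against 15.6 FPKM in mock SK-N-SH cells. The ratio of SNRPN to SNRPB was 1.68 with PcTF and 2.50 in mock U-2 OS cells, and 2.07 with PcTF and 1.97 in mock SK-N-SH cells. SNRPN averaged 14.3 FPKM, against 4.86 FPKM in U2OS-dTF, a log2 change of 1.54 that runs opposite to the other ring genes, and in U2OS-dTF the ratio to SNRPB was 0.173. SmB and SmN transcripts are similar in sequence, and how shared reads were divided is not given in the sources used here.

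The starts of SNRPE and SNRPD2 are shown as 2 examples of Sm ring genes whose starts hold the letters described next. Both genes were 2-fold higher in U-2 OS, as were SNRPG, SF3B5 and PRPF19, whose starts are not shown. The 250 bases before the start of the deposited locus were read from GRCh37 on the strand of the gene, and capitals mark CCGGAAG or its complement CTTCCGG, the core letters bound by ETS family factors.
SNRPE, plus strand, chr1:203830490-203830739: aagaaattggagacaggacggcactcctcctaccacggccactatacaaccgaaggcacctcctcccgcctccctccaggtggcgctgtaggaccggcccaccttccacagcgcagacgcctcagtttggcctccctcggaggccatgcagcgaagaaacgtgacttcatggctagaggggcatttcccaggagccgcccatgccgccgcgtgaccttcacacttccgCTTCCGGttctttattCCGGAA
SNRPD2, minus strand, chr19:46195444-46195693: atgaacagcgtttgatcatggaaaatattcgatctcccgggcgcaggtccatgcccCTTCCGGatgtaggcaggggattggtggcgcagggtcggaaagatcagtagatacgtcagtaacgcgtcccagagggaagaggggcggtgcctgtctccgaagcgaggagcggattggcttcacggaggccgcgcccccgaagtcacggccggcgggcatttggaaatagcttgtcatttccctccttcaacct
In SNRPE a further match runs across the start, so only its first letters end the printed run. Over 300 bases, 250 before and 50 after the start, either strand of CCGGAAG occurred in 4 of 6 Sm ring genes that have a locus of their own (SNRPD1, SNRPD2, SNRPE and SNRPG), in 16 of 51 splicing genes and in 11.8% of 16072 genes. Of the genes 2-fold higher in U-2 OS, SNRPD2, SNRPE and SNRPG held these letters, while SF3B5 and PRPF19 did not. The letters CCAAT or ATTGG were in 5 of the 6 Sm genes, in 24 of the 51 splicing genes and in 36.1% of all windows. TATAAA or TTTATA was in 0 of the 6, in 6 of the 51 and in 10.6% of all windows. These are matches of letters only.

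The 4 genes for U1-specific and U2-specific proteins were also above mock in U-2 OS, with a median log2 change of 0.41. Of these 4, 0 passed 2-fold, against 12% of all genes. SNRPC encodes the C protein of U1, which contacts the 5' splice site (chr6:34724871-34741634), and had 7.21 FPKM with PcTF against 3.80 FPKM in mock U-2 OS cells, 6.12 FPKM with PcTF against 3.57 FPKM in mock SK-N-SH cells, and 58.1 FPKM with PcTF against 40.9 FPKM in mock K562 cells. SNRPA encodes the A protein of U1, which binds a stem-loop of U1 RNA (chr19:41256759-41271297), and had 6.88 FPKM with PcTF against 5.17 FPKM in mock U-2 OS cells, 3.84 FPKM with PcTF against 2.02 FPKM in mock SK-N-SH cells, and 25.6 FPKM with PcTF against 13.9 FPKM in mock K562 cells. Both were listed above mock in the 3 lines, by 0.50, 0.76 and 0.91 for SNRPC in K562, SK-N-SH and U-2 OS and by 0.88, 0.89 and 0.40 for SNRPA in the same order. In U-2 OS the counting interval included 0 for SNRPC (-0.17 to 2.19), SNRPA (-0.35 to 1.23) and SNRPA1 (-0.47 to 1.17). In SK-N-SH it included 0 for SNRPC (-0.29 to 1.97) and SNRPA (-0.16 to 2.07). SNRPC averaged 5.43 FPKM, against 14.6 FPKM in U2OS-dTF (-1.41), and SNRPA averaged 7.76 FPKM, against 8.35 FPKM in U2OS-dTF (-0.10). SNRPA1 and SNRPB2, which encode a pair of U2 proteins that bind its RNA together, had log2 changes between -0.13 and 0.42 in the 3 transfected lines.

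Among SF3A and SF3B genes, 3 of 9 were 2-fold higher in K562, 0 of 8 in SK-N-SH and 1 of 8 in U-2 OS, against 28.6%, 5.79% and 12% of all genes. SF3B5, the smallest SF3B subunit and an intronless gene (chr6:144416018-144416754), had 41.6 FPKM with PcTF against 17.3 FPKM in mock U-2 OS cells, 25.5 FPKM with PcTF against 14.4 FPKM in mock SK-N-SH cells, and 436 FPKM with PcTF against 133 FPKM in mock K562 cells. Its log2 changes were 1.72 (1.54 to 1.90) in K562, 0.82 (0.21 to 1.41) in SK-N-SH and 1.26 (0.72 to 1.85) in U-2 OS, and it averaged 40.5 FPKM, against 50.5 FPKM in U2OS-dTF. SF3B5 and PRPF19 were the only splicing genes 2-fold higher in at least 2 of the 3 lines, 2 of 62 against 6.07% of all genes. SF3B1, the large scaffold subunit that holds the branch site and is often mutated in myeloid disease (chr2:198256698-198299771), had 182 FPKM with PcTF against 236 FPKM in mock U-2 OS cells, 227 FPKM with PcTF against 237 FPKM in mock SK-N-SH cells, and 83.5 FPKM with PcTF against 66.3 FPKM in mock K562 cells. SF3B1 was below mock in U-2 OS (-0.38) and averaged 175 FPKM, against 112 FPKM in U2OS-dTF. SF3B14, now named SF3B6, encodes the p14 subunit next to the branch adenosine (chr2:24290454-24299314) and had 174 FPKM with PcTF against 101 FPKM in mock U-2 OS cells, 188 FPKM with PcTF against 169 FPKM in mock SK-N-SH cells, and 146 FPKM with PcTF against 114 FPKM in mock K562 cells. It averaged 159 FPKM, against 265 FPKM in U2OS-dTF.

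In K562 SF3B3 and SF3B4 were also 2-fold higher. SF3B3, a large propeller protein of the complex, had 41.0 FPKM with PcTF against 19.5 FPKM in mock K562 cells, and SF3B4, which binds RNA next to the branch site, had 11.98 FPKM with PcTF against 5.73 FPKM in mock K562 cells. Neither was 2-fold apart in the other transfected lines. Of the SF3A genes, SF3A1 (chr22:30727977-30773894, shared with CCDC157) had 9.93 FPKM with PcTF against 8.49 FPKM in mock U-2 OS cells, 12.7 FPKM with PcTF against 9.25 FPKM in mock SK-N-SH cells, and 17.1 FPKM with PcTF against 20.5 FPKM in mock K562 cells and averaged 13.9 FPKM, against 25.6 FPKM in U2OS-dTF. SF3A2 was the lowest SF3 gene, with 0.973 FPKM with PcTF against 0.798 FPKM in mock SK-N-SH cells and 2.89 FPKM with PcTF against 1.48 FPKM in mock K562 cells. It was 0.484 FPKM in PcTF-transfected U-2 OS cells and listed at 0 in mock U-2 OS cells, so no fold is given there, and it averaged 0.828 FPKM, against 0.835 FPKM in U2OS-dTF.

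Most PRPF genes were within 2-fold of mock in the transfected lines. In U-2 OS their median log2 change was -0.04 and 1 of 12 was 2-fold higher. For SK-N-SH 0 of 13 moved 2-fold, while 2 of 12 were higher and 1 was lower in K562. Of all genes, 28.6% were 2-fold higher for K562, 5.79% for SK-N-SH and 12% for U-2 OS. The 2-fold lower shares of all genes were 11.7%, 2.69% and 5.59% in that order. PRPF19, a ubiquitin ligase that leads the complex activating the spliceosome (chr11:60658020-60674061), had 6.33 FPKM with PcTF against 3.07 FPKM in mock U-2 OS cells, 5.71 FPKM with PcTF against 5.85 FPKM in mock SK-N-SH cells, and 37.6 FPKM with PcTF against 17.8 FPKM in mock K562 cells. Its log2 change was 1.02 (0.40 to 1.72) in U-2 OS, which falls below 2-fold when 1 FPKM is added in place of 0.1 (0.85) or when the median of all genes is subtracted (0.97), and 1.08 in K562, which is 0.79 after that subtraction. PRPF19 averaged 7.54 FPKM, against 14.6 FPKM in U2OS-dTF. PRPF4, a U4/U6 protein (chr9:116037914-116055185), had 5.32 FPKM with PcTF against 5.50 FPKM in mock U-2 OS cells, 12.6 FPKM with PcTF against 9.91 FPKM in mock SK-N-SH cells, and 26.0 FPKM with PcTF against 12.1 FPKM in mock K562 cells and averaged 8.79 FPKM, against 12.6 FPKM in U2OS-dTF. PRPF38B (chr1:109234932-109244422) was the only gene other than a pseudogene that was 2-fold lower in K562, with 77.5 FPKM with PcTF against 83.6 FPKM in mock U-2 OS cells, 42.2 FPKM with PcTF against 41.6 FPKM in mock SK-N-SH cells, and 54.1 FPKM with PcTF against 133 FPKM in mock K562 cells. Its K562 log2 change was -1.30 (-1.40 to -1.20), and it averaged 85.3 FPKM, against 86.7 FPKM in U2OS-dTF.

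PRPF8, the U5 protein at the heart of the catalytic centre (chr17:1553923-1588176), was the highest of the family in mock SK-N-SH cells, with 41.3 FPKM with PcTF against 47.5 FPKM in mock U-2 OS cells, 95.04 FPKM with PcTF against 80.3 FPKM in mock SK-N-SH cells, and 155 FPKM with PcTF against 95.2 FPKM in mock K562 cells, and it averaged 56.2 FPKM, against 44.5 FPKM in U2OS-dTF. PRPF39, a relative of a yeast U1 protein (chr14:45553302-45603732, shared with FKBP3), had 57.2 FPKM with PcTF against 62.4 FPKM in mock U-2 OS cells, 17.8 FPKM with PcTF against 15.2 FPKM in mock SK-N-SH cells, and 9.01 FPKM with PcTF against 9.70 FPKM in mock K562 cells and averaged 58.6 FPKM, against 23.0 FPKM in U2OS-dTF. It was close to mock in all 3 transfected lines and lower in U2OS-dTF than in mock U-2 OS cells, by a log2 change of -1.43. PRPF18, a factor of the second catalytic step (chr10:13628939-13672868), had 4.04 FPKM with PcTF against 3.68 FPKM in mock U-2 OS cells, 16.1 FPKM with PcTF against 13.5 FPKM in mock SK-N-SH cells, and 5.84 FPKM with PcTF against 6.12 FPKM in mock K562 cells and averaged 8.62 FPKM, against 3.79 FPKM in U2OS-dTF (1.16). PRPF3, a U4/U6 protein, had 12.6 FPKM with PcTF against 15.9 FPKM in mock U-2 OS cells, 11.9 FPKM with PcTF against 11.8 FPKM in mock SK-N-SH cells, and 24.9 FPKM with PcTF against 20.3 FPKM in mock K562 cells and averaged 14.2 FPKM, against 8.55 FPKM in U2OS-dTF. PRPF38A, needed to activate the assembled spliceosome, had 21.5 FPKM with PcTF against 29.5 FPKM in mock U-2 OS cells, 32.0 FPKM with PcTF against 28.5 FPKM in mock SK-N-SH cells, and 44.9 FPKM with PcTF against 35.0 FPKM in mock K562 cells and averaged 27.3 FPKM, against 19.6 FPKM in U2OS-dTF.

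PRPF40B (chr12:50017403-50101197, shared with FMNL3) was barely expressed in the transfected lines. It had 0.789 FPKM with PcTF against 0.252 FPKM in mock U-2 OS cells and 1.23 FPKM with PcTF against 1.20 FPKM in mock SK-N-SH cells, and it was 0.819 FPKM in PcTF-transfected K562 cells and listed at 0 in mock K562 cells. In U2OS-dTF it reached 9.88 FPKM, against a mean of 2.80 FPKM over the 3 PcTF libraries and 0.252 FPKM in mock U-2 OS cells. The log2 change of U2OS-dTF over mock cells, 4.83 (3.78 to 7.05), was the highest of any splicing gene there.

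SR protein genes did not move 2-fold in U-2 OS (0 of 11) or SK-N-SH (0 of 11) and were higher for 2 of 10 in K562. Their medians were 0.76 in K562, -0.14 in SK-N-SH and -0.01 in U-2 OS. The background of all genes was 28.6%, 5.79% and 12% higher in the same order, and 11.7%, 2.69% and 5.59% lower. SRSF4 (chr1:29474250-29508637) had 29.5 FPKM with PcTF against 29.0 FPKM in mock U-2 OS cells, 30.2 FPKM with PcTF against 34.2 FPKM in mock SK-N-SH cells, and 63.2 FPKM with PcTF against 26.3 FPKM in mock K562 cells and averaged 43.2 FPKM, against 46.1 FPKM in U2OS-dTF, with a K562 log2 change of 1.26 (1.06 to 1.46). SRSF1, the best known SR protein and a proto-oncogene product (chr17:56078280-56084707), had 69.7 FPKM with PcTF against 34.8 FPKM in mock K562 cells, a change of 1.00 (0.89 to 1.12) that lies at the 2-fold line. SRSF2, also called SC35 (chr17:74730197-74775336, shared with MFSD11), had 77.5 FPKM with PcTF against 62.4 FPKM in mock U-2 OS cells, 97.5 FPKM with PcTF against 117 FPKM in mock SK-N-SH cells, and 261 FPKM with PcTF against 161 FPKM in mock K562 cells and averaged 113 FPKM, against 297 FPKM in U2OS-dTF (-1.39). SRSF11 (chr1:70671365-70717701) had 125 FPKM with PcTF against 126 FPKM in mock U-2 OS cells, 112 FPKM with PcTF against 124 FPKM in mock SK-N-SH cells, and 125 FPKM with PcTF against 161 FPKM in mock K562 cells and averaged 127 FPKM, against 66.0 FPKM in U2OS-dTF. SRSF11 and SRSF2 were the highest of the family by mean over the mock libraries.

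SRSF6 had 23.4 FPKM with PcTF against 27.0 FPKM in mock U-2 OS cells, 54.6 FPKM with PcTF against 68.1 FPKM in mock SK-N-SH cells, and 27.5 FPKM with PcTF against 25.4 FPKM in mock K562 cells and averaged 38.5 FPKM, against 32.3 FPKM in U2OS-dTF. SRSF8, an intronless copy derived from SRSF2, had 4.75 FPKM with PcTF against 5.45 FPKM in mock U-2 OS cells, 7.08 FPKM with PcTF against 7.64 FPKM in mock SK-N-SH cells, and 13.1 FPKM with PcTF against 7.45 FPKM in mock K562 cells and averaged 9.02 FPKM, against 4.59 FPKM in U2OS-dTF. Both kept within 2-fold of mock in the 3 lines. SRSF12 (chr6:89805678-89827800) had 6.17 FPKM with PcTF against 6.23 FPKM in mock SK-N-SH cells and 1.37 FPKM with PcTF against 1.63 FPKM in mock U-2 OS cells, and was listed at 0 in both K562 libraries. It averaged 1.27 FPKM, against 0.0508 FPKM in U2OS-dTF, a log2 change of 3.18, the highest of any splicing gene in that comparison, where the U2OS-dTF value amounts to 1 estimated read. The row named SRSF10 lies on an unlocalized contig of chromosome 1 in the deposited table, so its values of 0 to 0.45 FPKM do not stand for the main SRSF10 gene. It had 0.0818 FPKM with PcTF against 0.450 FPKM in mock U-2 OS cells and 0.249 FPKM with PcTF against 0.106 FPKM in mock K562 cells, was listed at 0 in both SK-N-SH libraries, and averaged 0.145 FPKM, against 0.0860 FPKM in U2OS-dTF.

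The hnRNP genes included the most abundant transcripts of the set. HNRNPA2B1 (chr7:26229556-26240413), whose product packages nascent RNA and acts in RNA transport, had 477 FPKM with PcTF against 436 FPKM in mock U-2 OS cells, 531 FPKM with PcTF against 579 FPKM in mock SK-N-SH cells, and 1147 FPKM with PcTF against 633 FPKM in mock K562 cells and averaged 757 FPKM, against 1426 FPKM in U2OS-dTF. In the adherent lines 0 of 19 hnRNP genes moved 2-fold, and in K562 4 of 20 rows were higher and 1, a pseudogene, was lower. Among all genes 28.6% were 2-fold higher in K562, 5.79% in SK-N-SH and 12% in U-2 OS. Lower were 11.7%, 2.69% and 5.59% of all genes in the same order. HNRNPD, or AUF1, which binds AU-rich elements in unstable mRNAs (chr4:83274467-83295149), had 169.8 FPKM with PcTF against 159 FPKM in mock U-2 OS cells, 189 FPKM with PcTF against 169 FPKM in mock SK-N-SH cells, and 480.0 FPKM with PcTF against 135 FPKM in mock K562 cells and averaged 290.1 FPKM, against 419.9 FPKM in U2OS-dTF. Its K562 log2 change of 1.83 (1.71 to 1.96) was the highest in K562 among the splicing genes with 1 FPKM or more in either library, and the other 2 lines stayed within 0.16 of mock. HNRNPAB (chr5:177631508-177659803, shared with AGXT2L2) had 30.1 FPKM with PcTF against 24.1 FPKM in mock U-2 OS cells, 33.2 FPKM with PcTF against 37.6 FPKM in mock SK-N-SH cells, and 220.3 FPKM with PcTF against 91.8 FPKM in mock K562 cells and averaged 44.8 FPKM, against 125 FPKM in U2OS-dTF. HNRNPC, which binds uridine tracts and shields cryptic exons (chr14:21677296-21737638), had 13.4 FPKM with PcTF against 13.4 FPKM in mock U-2 OS cells, 21.0 FPKM with PcTF against 22.4 FPKM in mock SK-N-SH cells, and 45.9 FPKM with PcTF against 20.7 FPKM in mock K562 cells and averaged 20.3 FPKM, against 37.1 FPKM in U2OS-dTF. HNRNPUL1 had 83.3 FPKM with PcTF against 40.1 FPKM in mock K562 cells, and so also passed 2-fold in K562 (1.05).

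HNRNPH3 (chr10:70042417-70102953, shared with PBLD) was close to mock in the transfected lines, with 98.7 FPKM with PcTF against 92.2 FPKM in mock U-2 OS cells, 75.9 FPKM with PcTF against 80.3 FPKM in mock SK-N-SH cells, and 201 FPKM with PcTF against 196 FPKM in mock K562 cells. In U2OS-dTF it was 610.2 FPKM, against a mean of 165 FPKM over the 3 PcTF libraries and 92.2 FPKM in mock U-2 OS cells. HNRNPUL2 (chr11:62457734-62494857, shared with BSCL2 and GNG3) had 5.53 FPKM with PcTF against 5.28 FPKM in mock U-2 OS cells, 7.84 FPKM with PcTF against 9.69 FPKM in mock SK-N-SH cells, and 6.44 FPKM with PcTF against 11.98 FPKM in mock K562 cells and averaged 6.22 FPKM, against 19.7 FPKM in U2OS-dTF (-1.65). Other genes of the A type had small differences from mock as listed. HNRNPA1, which binds exonic and intronic silencers (chr12:54674488-54679030), had 65.0 FPKM with PcTF against 79.6 FPKM in mock U-2 OS cells, 79.3 FPKM with PcTF against 98.6 FPKM in mock SK-N-SH cells, and 322 FPKM with PcTF against 417 FPKM in mock K562 cells and averaged 129.6 FPKM, against 283 FPKM in U2OS-dTF. HNRNPA3 had 22.8 FPKM with PcTF against 24.6 FPKM in mock U-2 OS cells, 44.6 FPKM with PcTF against 58.0 FPKM in mock SK-N-SH cells, and 31.5 FPKM with PcTF against 36.8 FPKM in mock K562 cells and averaged 29.2 FPKM, against 50.4 FPKM in U2OS-dTF. HNRNPA0, an intronless gene, had 6.42 FPKM with PcTF against 9.11 FPKM in mock U-2 OS cells, 8.66 FPKM with PcTF against 12.2 FPKM in mock SK-N-SH cells, and 8.98 FPKM with PcTF against 9.20 FPKM in mock K562 cells and averaged 12.1 FPKM, against 22.7 FPKM in U2OS-dTF. HNRNPA1L2, an intronless copy of HNRNPA1, had 0.971 FPKM with PcTF against 1.22 FPKM in mock U-2 OS cells, 2.48 FPKM with PcTF against 3.33 FPKM in mock SK-N-SH cells, and 2.13 FPKM with PcTF against 3.46 FPKM in mock K562 cells and averaged 1.53 FPKM, against 2.90 FPKM in U2OS-dTF. All 4 were listed below mock in each of the 3 lines by less than 2-fold, but the counting interval included 0 for HNRNPA1L2 in every line, for HNRNPA0 in K562 and for HNRNPA3 in U-2 OS. For HNRNPA1 in K562 the size of the change depends on how reads were split with HNRNPA1P10, listed at the same locus. That row had 0.312 FPKM with PcTF against 299 FPKM in mock K562 cells. HNRNPA2B1, also of the A type, was above mock in K562 and U-2 OS.

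The pseudogene HNRNPA1P10 gave the largest single difference. It had 0.312 FPKM with PcTF against 299 FPKM in mock K562 cells, a log2 change of -9.50, and was listed at 0 in every other library. The deposited table places this row at chr12:54674488-54679030, the locus of HNRNPA1 itself, whereas the annotation used here places the processed pseudogene at chr19:11776884-11777845 of GRCh37, minus strand. Of 913 windows of 50 bases in the pseudogene, 72.9% occur exactly in HNRNPA1 transcripts. HNRNPA1 and HNRNPA1P10 values in K562 are therefore uncertain as to which gene the reads came from, and without the pseudogene rows and SRSF10 the count of genes lower in K562 is 1. The other pseudogenes stayed under 0.4 FPKM in every library. SNRPD2P2 was 0 FPKM with PcTF and 0.367 FPKM in mock U-2 OS cells and listed at 0 in the other libraries. HNRNPKP3 was listed at 0 with PcTF and 0.244 FPKM in mock U-2 OS cells, at 0 with PcTF and 0.115 FPKM in mock SK-N-SH cells, and at 0 in both K562 libraries and in U2OS-dTF. HNRNPA3P1 was listed at 0 in both U-2 OS libraries, at 0 with PcTF and 0.137 FPKM in mock SK-N-SH cells, at 0.241 FPKM with PcTF and 0.152 FPKM in mock K562 cells, and at 0.369 FPKM in U2OS-dTF.

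**Figure D4:**
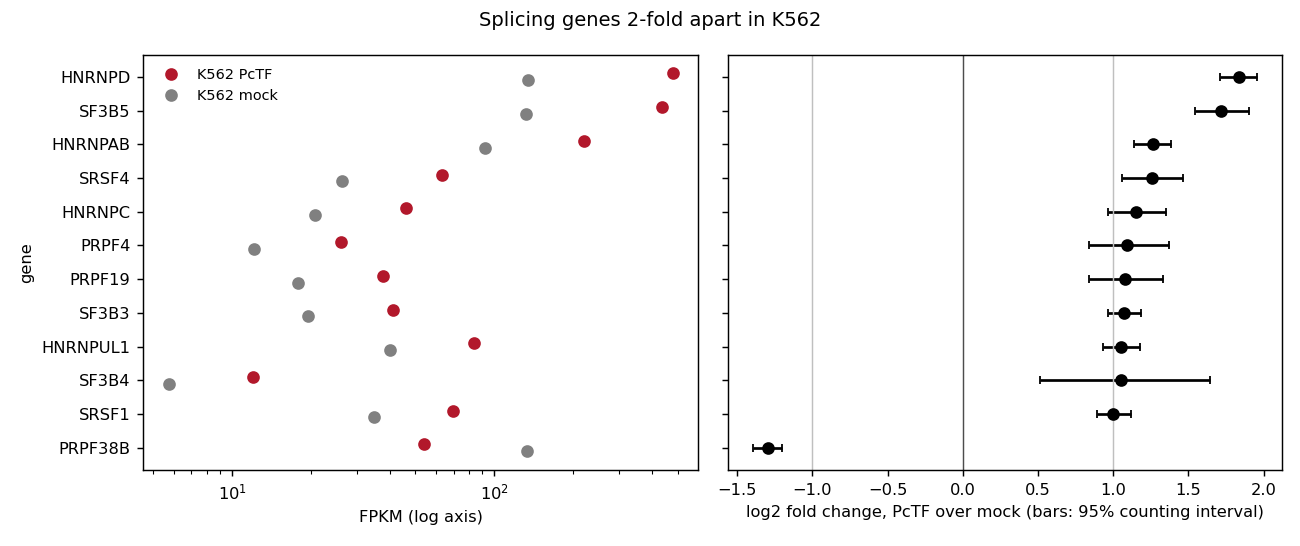
The 12 splicing genes 2-fold apart in K562, without HNRNPA1P10. Left, FPKM on a log axis with PcTF and in mock cells. Right, log2 fold change with its 95% counting interval. HNRNPD and SF3B5 are highest and PRPF38B is the only gene that is lower.

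The K562 counts depended on scaling. The median log2 change of genes with 1 FPKM or more in both K562 libraries was 0.28, and with it subtracted 2 splicing genes, HNRNPD and SF3B5, stayed 2-fold higher and 4 (HNRNPA1P10, PRPF38B, HNRNPUL2 and SNRPG) were 2-fold lower. Here too the share of all genes after subtraction is not given. The 6 erythroid markers also moved in K562, summing to 21269 FPKM with PcTF against 7269 FPKM in mock cells. Their part in the result was not tested.

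Transcript length moved with the change in U-2 OS. Splicing genes with transcripts under 1000 nt had a median log2 change of 0.79 (9 genes) and those of 4000 nt or more -0.08 (10 genes), while all genes had 0.40 and -0.11. Across 62 splicing genes length and log2 change had a Spearman rho of -0.55, against -0.27 across all 11926 genes with a length, where genes are not independent replicates. Of the 7 Sm ring genes all but SNRPB and SNRPE have a chosen transcript under 1000 nt. Each length is that of 1 annotated transcript chosen to fit the deposited locus. For some genes, such as SF3B1 at 2127 nt, it may not be the length of the main mRNA. In U2OS-dTF over mock U-2 OS cells the short splicing genes had a median of 1.91 and the long ones -0.13, and all genes 0.69 and -0.70. In K562 the short splicing genes had a median of -0.18 and the long ones 0.40, against 0.44 and 0.27 for all genes. The K562 short genes include HNRNPA1P10, whose reads are uncertain, and without the pseudogene rows and SRSF10, left out after their values were seen, their median was 0.05 (9 genes). The part of length in the Sm gene changes was not tested.

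**Figure D5:**
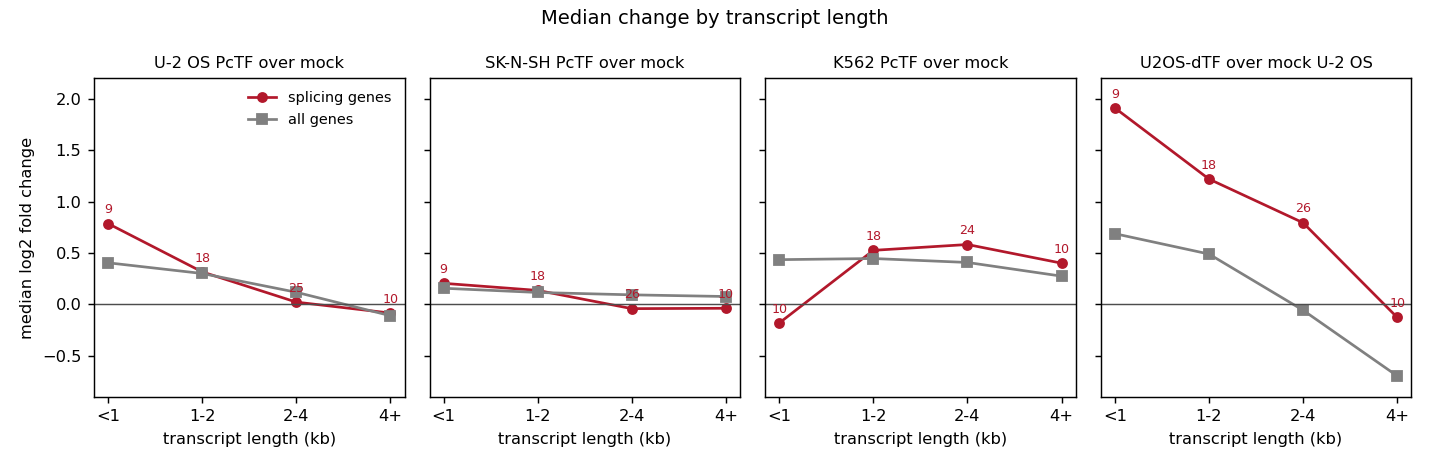
Median log2 fold change by transcript length for splicing genes (red, number of genes above each point) and all genes (grey) in 4 comparisons. In U-2 OS and in U2OS-dTF over mock cells the median falls with length in both sets. In K562 the splicing genes under 1000 nt lie at -0.18 (0.05 without the pseudogene rows and SRSF10), below all genes at 0.44.

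Of 60 splicing genes measured at 1 FPKM or more in each line, 15 were above mock in all 3 (25.0%, against 26.2% of all genes) and 5 were below mock in all 3. Across these 60 genes the log2 changes of SK-N-SH and U-2 OS had a Pearson r of 0.10 and a Spearman rho of 0.32, those of U-2 OS and K562 -0.02 and 0.06, and those of SK-N-SH and K562 0.32 and 0.19. Across 9192 genes by the same rule the values were 0.18 and 0.20 for the first pair, 0.10 and 0.14 for U-2 OS with K562, and -0.02 and 0.003 for SK-N-SH with K562. These are descriptions across genes, each line being 1 pair of libraries.

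Further splicing genes outside the 5 families were taken from 7 lists, in which 127 of 129 symbols were found in the tables. In U-2 OS 10 of 117 were 2-fold higher and 1 was lower, in SK-N-SH 2 of 116 and 2, and in K562 19 of 114 and 4. Among all genes 28.6% were higher and 11.7% lower in K562, 5.79% higher and 2.69% lower in SK-N-SH, and 12% higher and 5.59% lower in U-2 OS. U2OS-dTF over mock U-2 OS cells gave 45 of 117 higher and 23 lower (28.1% and 32.0% of all genes), and the mean of 3 PcTF libraries over U2OS-dTF 24 of 118 higher and 20 lower (36.1% and 14.5% of all genes). The LSm proteins are relatives of the Sm proteins, and some of them form the ring on U6 RNA. Counting the 7 of 9 that reached 1 FPKM, all were above mock in U-2 OS (7 of 7, median 0.46, 2 of them 2-fold). All were also above mock in U2OS-dTF (7 of 7, median 1.88, 6 of them 2-fold). Among all genes 6900 of 12411 were above mock in U-2 OS and 5985 of 12660 in U2OS-dTF. LSM7 had 14.0 FPKM with PcTF and 33.3 FPKM in U2OS-dTF, against 1.94 FPKM in mock U-2 OS cells. The other snRNP proteins were above mock in 22 of 27 in U-2 OS, with a median of 0.50 and 4 of them 2-fold higher. SR protein kinases and SR-related proteins had a median of 0.00 in U-2 OS, 0 of 17 moving 2-fold.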

How the data were processed

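The authors deposited FPKM values in 4 tables, and the submitters' processing notes name hg19, Bowtie2, TopHat2 2.1.0, Cufflinks and Cuffdiff. Reads were single-end and 50 bases long. RNA was amplified by a single-primer method, which can change the relative yield of transcripts. The 8 value columns hold 7 single libraries and 1 mean of 3 libraries, and 1 library of the series was not analysed here. No group had 2 or more libraries in columns of their own, so no p-value was computed.

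Splicing genes were matched by symbol. Log2 ratios were taken after adding 0.1 FPKM, and a 2-fold difference with 1 FPKM or more in either column was counted, over all genes and over the members alike. The mean of the U2OS-PcTF libraries was derived from the mean of 3 by removing the PcTF-transfected U-2 OS library. Reads were estimated from whole-read FPKM steps (97.4 to 100% of low values whole within 3%) and GENCODE 44 transcript lengths (GRCh37), with exact 95% binomial intervals. The canonical transcript was taken if it lay inside the deposited locus, and otherwise another inside it where there was any. Estimated reads and length bins rest on that choice. The ratio scripts were tested on simulated data. Genes given with every value were the 2 highest of each family by mean FPKM in mock cells, up to 6 highest and 6 lowest in each of 5 comparisons, those 2-fold apart in more than 1 line, the 6 with the largest gap between mock libraries, and those listed at 0 anywhere, except that 1 gene is not reported here. The members and lists were chosen with earlier results of these data known. Python 3.11.15, pandas 2.3.3, numpy 2.4.6, scipy 1.17.1 and matplotlib 3.10.9 were used.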

Additional observations from a re-analysis of the deposited data

Results flagged for a closer look

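SNRPG, the SmG gene, went opposite ways in the 3 transfected lines. Its log2 change of PcTF over mock was -0.80 in K562, -1.58 in SK-N-SH and 1.76 in U-2 OS, so U-2 OS moved one way and the other lines the other way. It was 18.7 FPKM with PcTF against 5.46 FPKM in mock U-2 OS cells, 2.50 FPKM with PcTF against 7.69 FPKM in mock SK-N-SH cells, and 32.0 FPKM with PcTF against 55.8 FPKM in mock K562 cells. Each line has 1 library per condition, and the difference between lines was not tested.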

How the results depend on the processing

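No paired analysis was possible because each group compared is given as 1 library or as a mean of libraries. Of the counts and medians recomputed under the alternatives, 88 stayed close to the value reported and 13 moved. The SK-N-SH median, 0.01 as reported, changed sign with values near 0: it was -0.08 with the median of all genes subtracted and -0.003 with at least 5 FPKM in either library. Without a filter on low values the splicing genes 2-fold lower were 3 in SK-N-SH, 3 in U-2 OS and 8 in U2OS-dTF over mock U-2 OS cells. The share of all genes without that filter is not given. With the median of all genes subtracted, K562 had 2 splicing genes higher, 4 lower and a median of 0.076, and the mean of 3 PcTF libraries over U2OS-dTF had 3 higher and 26 lower. Shares of all genes after that subtraction are not given beside these counts. The mean of the 2 U2OS-PcTF libraries gave 8 higher over U2OS-dTF. Alternatives chosen after seeing the data gave 22 higher, 0 lower and a median of 0.67 for that mean over mock U-2 OS cells, and 1 lower in K562 without the 4 pseudogene rows and SRSF10. Among single genes, that subtraction changed the sign of 9 values and the 2-fold count of 20, and adding 1 FPKM changed 2, PRPF19 in U-2 OS (0.85) and HNRNPA1L2 in U2OS-dTF over mock U-2 OS cells (0.82). Depth limits low genes most: the read interval lay above 0 for 38 and below 0 for 12 of 62 splicing genes in K562, 9 and 12 of 63 in SK-N-SH, and 19 and 8 of 62 in U-2 OS. These intervals hold no variation between cultures. No such count over all genes is given, so the interval counts have no background.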

Other observations

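Splicing factors outside the 5 families gave several larger differences. In K562 cells ZMAT5, a protein of the minor U11/U12 snRNP, had 23.4 FPKM with PcTF against 0.299 FPKM in mock cells, and PHF5A, a small SF3B subunit, had 5.64 FPKM with PcTF against 0.248 FPKM in mock cells. GEMIN2, a member of the SMN complex that loads Sm rings onto RNA, had 4.44 FPKM with PcTF against 15.2 FPKM in mock K562 cells, 1.97 FPKM with PcTF against 0.877 FPKM in mock SK-N-SH cells, and 0.425 FPKM with PcTF against 1.31 FPKM in mock U-2 OS cells. MBNL2, a muscleblind splicing regulator, had 101 FPKM with PcTF against 238 FPKM in mock SK-N-SH cells, and 8.80 FPKM in U2OS-dTF against 83.5 FPKM in mock U-2 OS cells. CLK4, a kinase of SR proteins, had 1.80 FPKM in U2OS-dTF against 20.4 FPKM in mock U-2 OS cells. GEMIN8 averaged 1.66 FPKM over the 3 PcTF libraries, against 0.0598 FPKM in U2OS-dTF. In each comparison named, these genes were among the 2 highest or the 2 lowest of the 7 lists, and they are given for that reason. Each value is 1 library, apart from the mean of 3. ZMAT5, PHF5A, GEMIN2 and GEMIN8 each had a value below 1 FPKM, which can rest on few reads. No read interval is given for the genes named here.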
